A study of Mus musculus with 3 samples.

Results

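Shared coding-lncRNA regions are stretches of chromatin marked by acetylation of histone H3 at lysine 27 (H3K27ac) that reach an end of a protein-coding gene and an end of a long non-coding RNA (lncRNA) gene at once. The mark was mapped by ChIP-seq, in which DNA bound to the acetylated histone is pulled down with an antibody and sequenced. The cells were double-negative thymocytes, the CD4-CD8- T cell precursors of the thymus, sorted as CD25+CD44-/+ cells from wild-type C57BL/6J mice aged 5 to 7 weeks. Per the labels' protocols, chromatin fixed with paraformaldehyde was first captured with an antibody to H3, given sequencing adapters in that state, and then captured with the H3K27ac antibody. The labels give 2 H3K27ac replicates and 1 input. The input was not analysed here, and no sample of a mutant or of another cell type was used. Overlapping peaks of both replicates on chromosomes 1 to 19 and X were merged, and a merged region was kept as shared if it held a peak of each replicate. Of 4192 shared regions, 447 (10.7%) came within 1 kb of both a coding and an lncRNA gene end. These 447 regions touched 482 coding genes and 451 lncRNA genes, in 491 pairs. The regions were chosen by the presence and position of peaks in both replicates, so peak presence, width and enrichment are given as descriptions, with no test. The labels do not say whether the replicates came from separate animals or pools.

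H3K27ac is placed by acetyltransferases such as p300 and CBP on the nucleosomes that flank active promoters and enhancers. Many promoters of mammalian genes are transcribed on both strands, and where the RNA made away from the coding gene is stable and spliced it is often annotated as a divergent lncRNA. A peak has no strand, so acetylation between the starts of such a pair cannot be credited to either gene.

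A head-to-head pair means that the coding and the lncRNA gene lie on opposite strands and that both of their starts are in reach of the region. The promoters of the closest such pairs show how little DNA can separate the starts. The sequences are from RefSeq (GRCm38.p6), run 5′ to 3′ on the coding strand and hold the 250 bases before and the 50 bases after a coding start, which is the first of those 50. Capitals mark matches on either strand to any of 10 motifs. These were GGGCGG for the GC box, CCAAT for the CCAAT box, TATAAA for the TATA box and CCGGAAG for the Ets core. Also searched were TGACGTCA for the CRE, CACGTG for the E-box, TGTGGT for Runx, CTTTGAT for TCF, and the consensus words of NRF1 and YY1. No motif of the list contains another.
Gosr2: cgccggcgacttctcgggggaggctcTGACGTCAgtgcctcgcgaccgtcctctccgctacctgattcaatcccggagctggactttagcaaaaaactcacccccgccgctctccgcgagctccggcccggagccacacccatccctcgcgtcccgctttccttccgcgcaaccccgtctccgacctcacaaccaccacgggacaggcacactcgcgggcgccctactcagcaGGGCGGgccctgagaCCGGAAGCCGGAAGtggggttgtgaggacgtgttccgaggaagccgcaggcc
Ncaph: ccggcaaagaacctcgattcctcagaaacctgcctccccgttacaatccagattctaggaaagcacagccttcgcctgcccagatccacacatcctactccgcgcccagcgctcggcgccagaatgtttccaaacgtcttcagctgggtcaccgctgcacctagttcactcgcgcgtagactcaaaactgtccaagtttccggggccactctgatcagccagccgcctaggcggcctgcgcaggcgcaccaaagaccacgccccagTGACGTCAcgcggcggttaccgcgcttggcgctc
Srek1: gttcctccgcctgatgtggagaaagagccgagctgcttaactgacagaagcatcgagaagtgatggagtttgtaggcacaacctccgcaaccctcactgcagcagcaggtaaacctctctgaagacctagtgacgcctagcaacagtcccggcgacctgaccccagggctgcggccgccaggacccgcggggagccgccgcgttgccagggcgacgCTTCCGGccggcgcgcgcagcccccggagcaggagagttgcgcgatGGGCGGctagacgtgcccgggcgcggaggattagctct
Elovl6: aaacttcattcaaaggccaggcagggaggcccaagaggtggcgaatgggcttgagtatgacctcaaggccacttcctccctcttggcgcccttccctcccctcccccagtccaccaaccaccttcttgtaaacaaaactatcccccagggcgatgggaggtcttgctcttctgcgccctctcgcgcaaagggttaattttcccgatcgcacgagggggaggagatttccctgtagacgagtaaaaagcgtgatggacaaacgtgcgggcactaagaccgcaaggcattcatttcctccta

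Gosr2 (chr11:103697674-103697973, minus strand), which encodes a SNARE protein of the Golgi, has the start of its partner C130046K22Rik at base 250, next to its own. Ncaph (chr2:127133905-127134204, minus strand), a subunit of the condensin I complex, has the start of Gm35347 at base 252. In Srek1 (chr13:103774559-103774858, minus strand), a splicing regulator, the start of Gm52054 falls at base 242. In Elovl6 (chr3:129532136-129532435, plus strand), an enzyme of fatty acid elongation, that of Gm35986 falls at base 253. The start of Srek1 in the promoter table is not the outermost one of the gene, from which the distance of 1 bp in the gene table is counted. Their H3K27ac regions lay differently around these bases. The region of Gosr2 (917 bp) held all 300 bases and that of Ncaph (667 bp) held 271. The regions of Srek1 (1057 bp) and Elovl6 (1448 bp) held 0 of them and lay to one side. The authors give each peak a fold enrichment, a ratio over the caller's background. Whether it stands for the top or the mean of a peak is uncertain. At Gosr2 this fold was 3.14 for replicate 1 and 2.73 for replicate 2. It was 3.61 and 2.85 at Ncaph, 2.08 and 2.59 at Srek1, and 2.74 and 2.46 at Elovl6.

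The pairs were mostly head to head. Strand was given for both genes of the closest pair in 319 regions, and 281 of these (88.1%) were head to head. A further 17 (5.33%) had both starts on the same strand, 14 (4.39%) joined a coding start to an lncRNA 3′ end, 5 (1.57%) joined an lncRNA start to a coding 3′ end, and 2 (0.627%) joined only 3′ ends. For 128 regions a strand was not found for both genes. Strand was not used to choose the regions. The share was 89.8% (53 of 59) among regions with q of at most 0.05 in both replicates, and 87.1% and 87.5% when regions were taken from replicate 1 or replicate 2 alone. With a window of 2.5 kb it was 81.2% (316 of 389), the lowest of the settings tried.

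Close coding and lncRNA genes are mostly head to head in the annotation itself. Among annotated pairs with strands whose nearest ends lie within 1 kb of each other, 260 of the 308 joined by a shared region (84.4%) were head to head, against 972 of all 1480 (65.7%). Counted the other way, 26.7% of the 972 head-to-head pairs were joined. That compares with 8.94% of 179 pairs of a coding start and an lncRNA 3′ end, 6.09% of 115 pairs of an lncRNA start and a coding 3′ end, and 5.2% of 173 pairs of 3′ ends. Over all 2250 annotated pairs within 1 kb, strand given or not, 18.4% were joined. Same-strand starts were joined in 16 of 41 pairs (39.0%), a small group that includes read-through transcripts which share the start of the coding gene. The shares of joined pairs are single values of this merged list and carry no test.

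**Figure D1:**
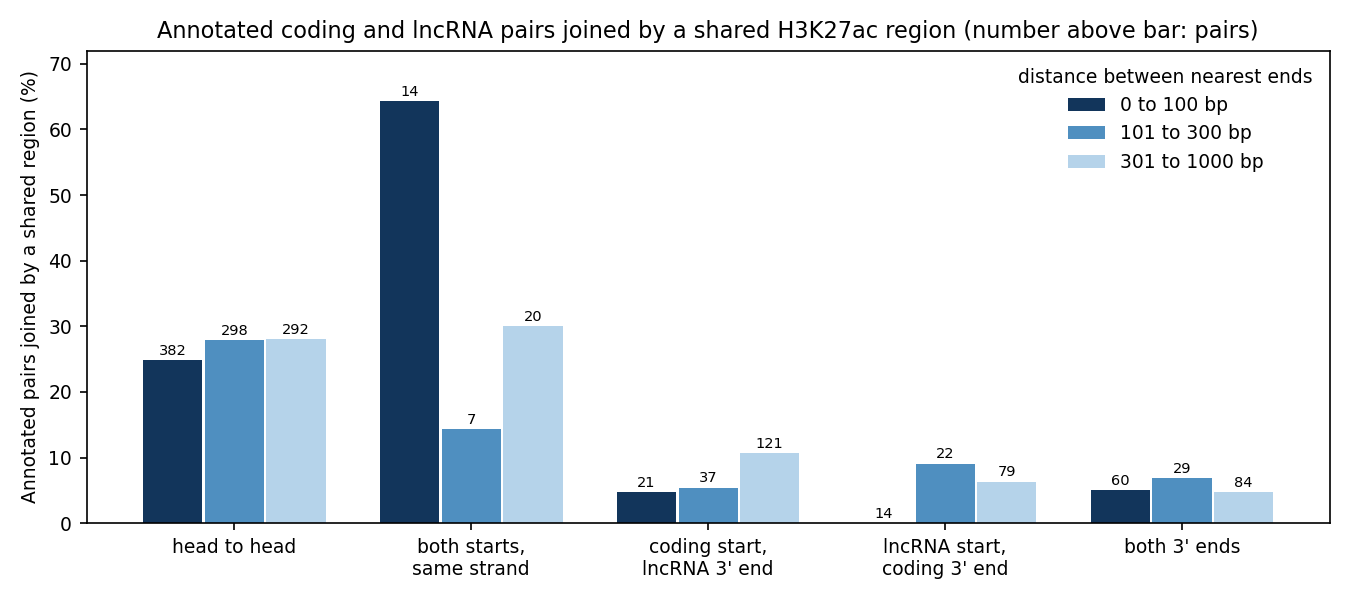
Share of annotated coding and lncRNA gene pairs (y axis, %) that a shared H3K27ac region joined, by the orientation of their nearest ends (x axis) and by the distance between those ends (shade), with the number of annotated pairs above each bar. Head-to-head pairs stand at 24.9%, 27.9% and 28.1% in the 3 distance classes, and every pair type that includes a 3′ end stands at 10.7% or less.

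The joined share of head-to-head pairs was similar over the distances. It was 24.9% of 382 pairs with starts up to 100 bp apart, 27.9% of 298 pairs over 100 and up to 300 bp apart and 28.1% of 292 pairs over 300 and up to 1000 bp apart. Coding genes with a head-to-head lncRNA within 1 kb had a shared region at an end in 27.7% of 972 cases, against 16.2% of 19464 coding genes with no lncRNA end within 1 kb and 16.9% of all 21631 coding genes. Among regions with a peak of 1 replicate only, 310 of 13211 (2.35%) reached both kinds of end, against 10.7% of shared regions. A shared region joins peaks of both replicates, which can make it wider. The share at coding ends alone is not given for the regions of 1 replicate. The contrast can therefore not be tied to lncRNA ends.

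The ends of a pair were close to each other. Over the 447 regions the closest pair had a median distance of 230 bp between its ends, with quartiles of 72.5 and 640.5 bp and a range of 0 to 4241 bp. In 144 regions (32.2%) the ends were up to 100 bp apart and in 389 (87.0%) up to 1 kb. The merged region itself held both ends in 274 cases (61.3%). In 220 regions the genes lay apart, in 192 they overlapped in part, in 26 the lncRNA gene lay inside the coding gene and in 9 the coding gene lay inside the lncRNA. Among the 281 head-to-head pairs, the lncRNA started upstream of the coding start in 155, at a median of 118 bp. It started downstream, inside the coding gene, in 126, at a median of 384 bp. The genes then overlap at their starts.

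The shortest and longest distances came from different kinds of pair. A distance of 0 bp was found at Dohh, Chkb, Rnf8, Zfp91 and Dpm1, where the coding gene lies inside an lncRNA that shares its end. Dohh encodes a hydroxylase that modifies the translation factor eIF5A, Chkb a choline kinase, Rnf8 a ubiquitin ligase of the DNA break response, and Dpm1 a mannosyltransferase. The longest, 4241 bp, was at Clcn4, a chloride transporter, with Gm45631. It was followed by Cxxc5 with Gm29417 (3382 bp), the predicted gene Gm52512 with Gm39813 (2955 bp), Ccnd2 with 9330179D12Rik (2799 bp) and the predicted gene Gm21119 with Gm46074 (2579 bp). At the 1 kb limit itself, Hnrnpa0 with Gm40964 was the last to enter, with its farther end 994 bp from the region, and Puf60 with Gm48952 (981 bp) and Clcn4 (977 bp) stood just before it. Pnisr with 4930528A17Rik (1005 bp), Spo11 with Gm52538 (1027 bp) and Git2 with 4930515G01Rik (1029 bp) stood just outside.

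Around the coding start, peaks were highest in frequency inside the coding gene. Taken over all head-to-head pairs, they extended further to the lncRNA side than at coding starts without an lncRNA. Each head-to-head region was aligned at its coding start, and the share of regions under a peak was taken at every 50 bp. The comparison set held 1520 shared regions at the start of a single coding gene with no other coding or lncRNA end within 1 kb. At 250 bp into the coding gene, 77.6% of the 281 head-to-head regions lay under a peak in replicate 1 and 77.2% in replicate 2, against 79.7% and 76.1% of the lone coding starts. At 500 bp upstream, on the lncRNA side, the shares were 33.1% and 29.5% in the head-to-head regions, against 21.9% and 19.9% at lone coding starts. At 1000 bp upstream they were 13.5% and 6.41%, against 5.72% and 3.22%. Both replicates had the same order at these upstream points. A region had to come near the lncRNA end to be counted, so its upstream extent is not independent of the choice.

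**Figure D2:**
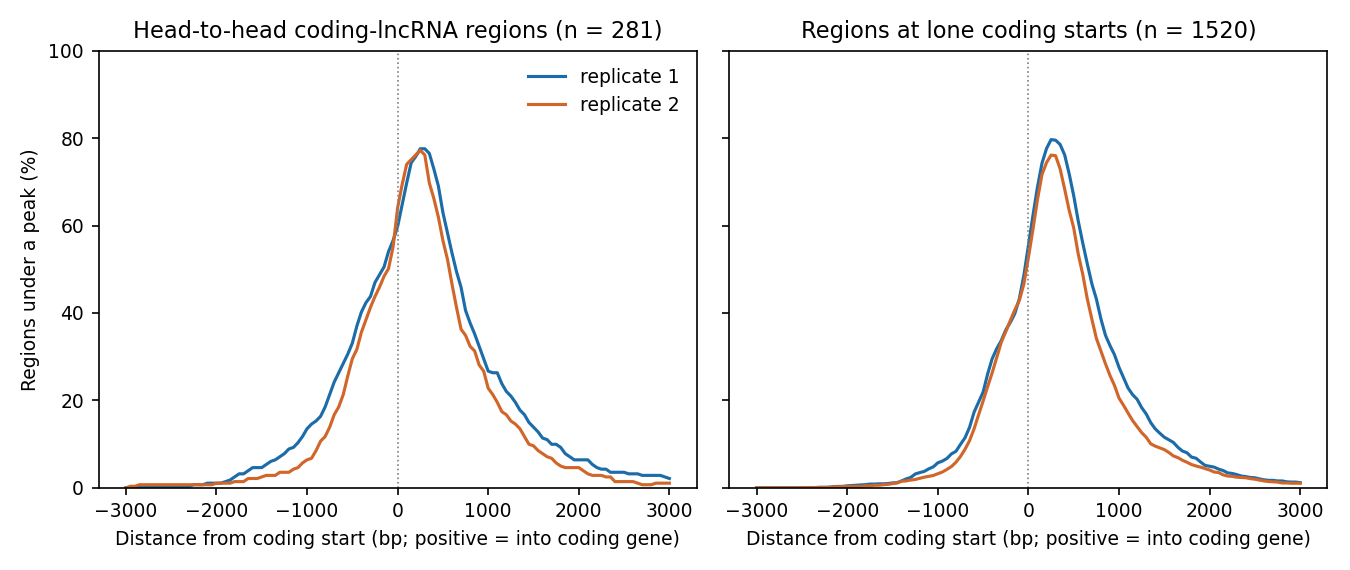
Share of regions under a peak (y axis, %) by distance from the coding start (x axis, bp, positive into the coding gene) for 281 head-to-head coding-lncRNA regions (left) and 1520 regions at lone coding starts (right), with 1 line per replicate. All lines peak inside the coding gene, and the left panel is higher on the upstream side, with 33.1% and 29.5% at 500 bp upstream against 21.9% and 19.9%.

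The merged region reached a median of 423 bp upstream and 806 bp downstream of the coding start in head-to-head regions, against 222 and 792 bp at lone coding starts. It was longer on the coding side in 211 of 281 head-to-head regions (75.1%), against 1251 of 1520 (82.3%). Where the lncRNA started over 300 bp upstream (34 regions), the medians were 831.5 bp upstream and 637.5 bp downstream. Where it started inside the coding gene (126 regions), they were 215.5 and 914.5 bp, so the upstream reach was near the 222 bp of lone coding starts. Over all 281 head-to-head regions the lncRNA start and the coding start were covered at similar rates. Both starts had to be in reach of the region. In 176 of the 281 they lie up to 300 bp apart, so that 1 peak can cover both. In replicate 1 the coding start lay under a peak in 59.8% of head-to-head regions and the lncRNA start in 60.9%, and in replicate 2 these shares were 64.1% and 58.7%. Both starts lay under peaks of both replicates in 91 regions (32.4%), the coding start alone in 38, the lncRNA start alone in 33 and neither in 119. In the 105 regions with starts over 300 bp apart the replicates differed. The coding start was covered in 57.1% and the lncRNA start in 60.0% in replicate 1, against 61.0% and 49.5% in replicate 2.

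Single loci show these forms. At Bcl2l13, a mitochondrial member of the Bcl2 family, the peaks of both replicates spanned both starts, from 283 bp upstream to 486 bp downstream of the coding start in replicate 1 and from 407 to 580 bp in replicate 2. At Tgif1, a homeodomain repressor, the peaks lay wholly inside the coding gene, 677 to 4446 bp from its start in replicate 1 and 257 to 4728 bp in replicate 2, although Gm36856 starts 8 bp upstream. At Zbtb37, which faces Gas5, the peaks lay largely on the Gas5 side. They ran from position -692 to 460 in replicate 1 and from -1683 to 323 in replicate 2, in bp from the coding start. At Pim1, a kinase induced by cytokine signals, replicate 1 had a peak of 4296 bp and replicate 2 a peak of 321 bp within it, so the width of that region rests on replicate 1.

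**Figure D3:**
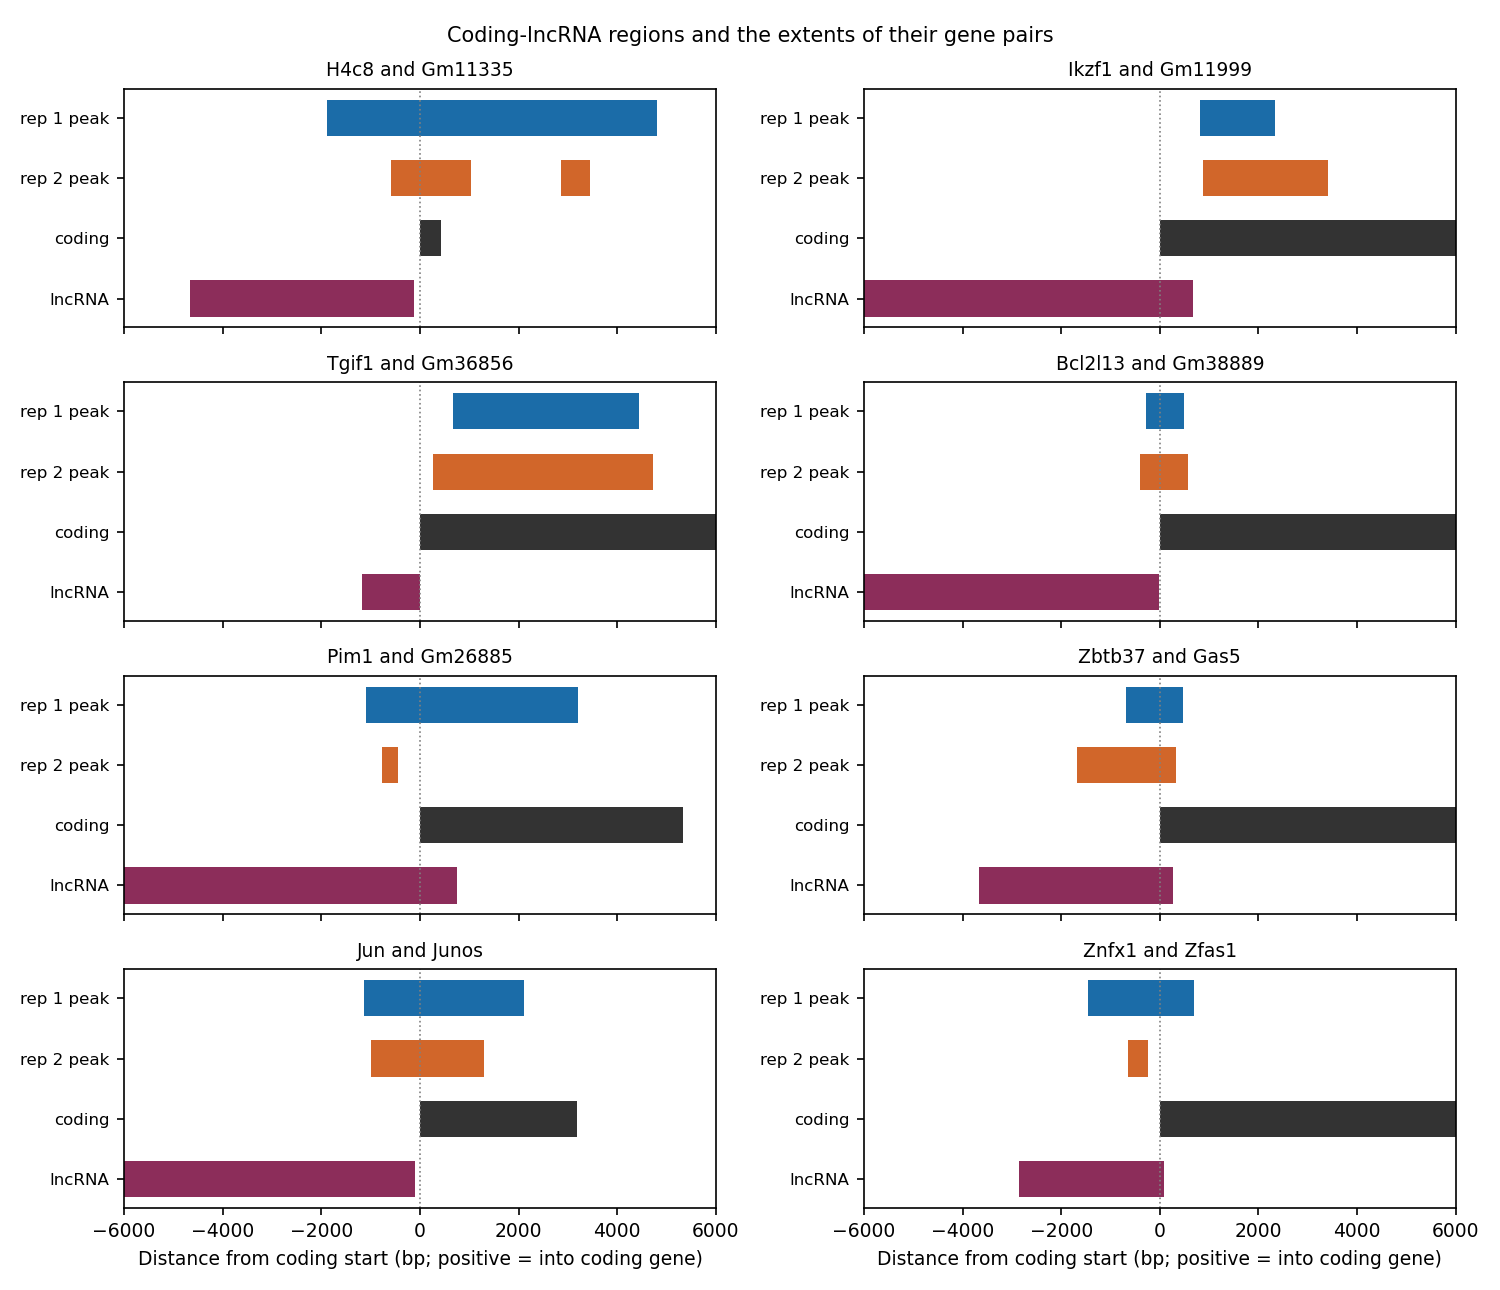
Peaks of replicate 1 and replicate 2 and the annotated extents of the coding and the lncRNA gene at 8 head-to-head pairs, by distance from the coding start (x axis, bp, positive into the coding gene). Gene bars that reach the edge of a panel go on beyond it. At Tgif1 and Ikzf1 both peaks lie downstream of the coding start, and at Bcl2l13 both span the 2 starts.

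Coding-lncRNA regions were somewhat wider than shared regions at coding ends alone and had similar folds. Their median merged width was 1297 bp (quartiles 884 and 1878 bp, range 285 to 6689 bp), against 1145 bp for 2540 shared regions with a coding end and no lncRNA end. Peaks covered a median of 1054 bp in replicate 1 and 881 bp in replicate 2, against 908.5 and 779 bp. Widths of at least 2 kb were found in 22.6% of the 447, against 12.1% of the 2540. Peaks of both replicates covered a median of 579 bp, against 535 bp. A wider region reaches more gene ends, so this difference too is not independent of the choice. Folds had medians of 2.16 for replicate 1 and 2.32 for replicate 2, against 2.18 and 2.34. In head-to-head regions median width was 1093 bp where the ends were up to 100 bp apart and 2117 bp in the 19 regions where they were over 1 kb apart. Among the 2540 regions with a coding end only, the 644 that reached at least 2 coding genes had a median width of 1256 bp. This is near the 1297 bp of the coding-lncRNA regions. The 1896 that reached 1 coding gene had 1106 bp. Widths of at least 2 kb were found in 14.4% of the 644 and 11.3% of the 1896.

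**Figure D4:**
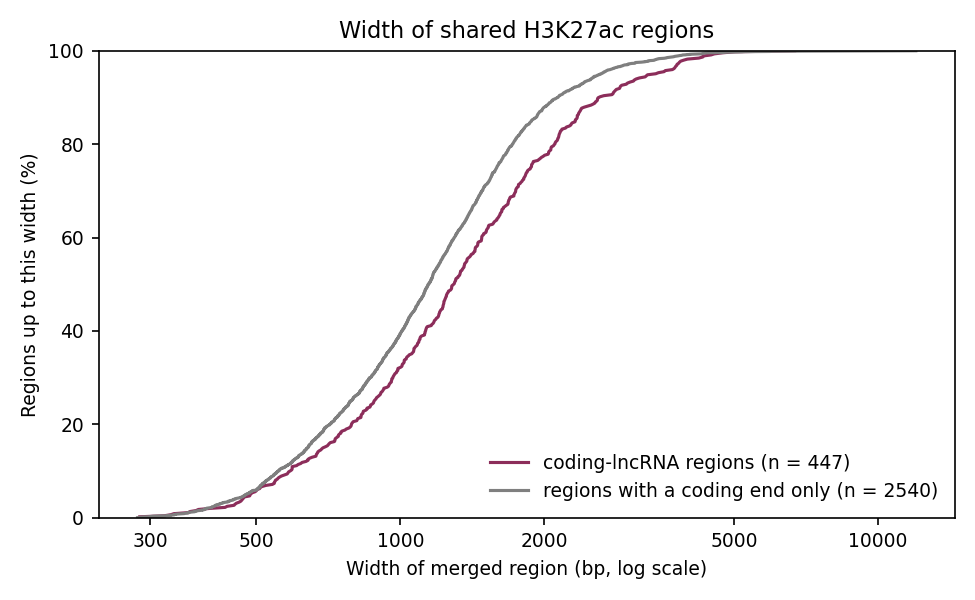
Cumulative share of regions (y axis, %) up to a given merged width (x axis, bp, log scale) for 447 coding-lncRNA regions and 2540 shared regions with a coding end only. The line of the coding-lncRNA regions lies to the right over most of the range, with medians of 1297 and 1145 bp.

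The widest region was the histone gene cluster region on chromosome 13 (chr13:23529160-23535848, 6689 bp), which holds H4c8, H2ac10 and H3c8, encoding core histones, with Gm11335. It was 1 peak in replicate 1 (fold 2.35) and 2 peaks of 2224 bp in all in replicate 2 (highest fold 3.21). Zfp36l2, which encodes an RNA-binding protein of mRNA decay, followed with 5008 bp (chr17:84183410-84188417, folds 1.87 and 2.43) beside Gm36279 and Gm41640. Marcks, an actin-binding substrate of protein kinase C, had 4720 bp with 5930403N24Rik (chr10:37136725-37141444, folds 2.84 and 2.23). Hmgb2, a DNA-bending chromatin protein, had 4542 bp with the 3′ end of 2500002B13Rik (chr8:57511072-57515613, folds 2.77 and 1.81). The remaining widest regions were those of Tgif1 (4472 bp), Bfsp2 (4304 bp), Pim1 (4296 bp), Rnf220 (4216 bp), Plekha2 (3990 bp) and Foxo3 (3919 bp), a forkhead factor. In this group of the 10 widest the folds ran from 1.22 to 3.21, around the medians of 2.16 in replicate 1 and 2.32 in replicate 2 over all 447 regions.

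Higher folds were found at other genes. The highest fold reached in both replicates was at Rps15, a ribosomal protein gene, with 5.27 in replicate 1 and 4.43 in replicate 2 (chr10:80292400-80293189). The region lay at the start of Rps15, and its lncRNA, Gm30682, lies 21 bp beyond the 3′ end of this short gene. The lncRNA Gm38889 followed at both of its ends. Its 3′ end lies 1110 bp from Atp6v1e1, a subunit of the vacuolar proton pump, with folds of 8.82 and 4.42 (chr6:120822178-120823012). Its start lies 12 bp from that of Bcl2l13, with folds of 7.47 and 4.004 (chr6:120835799-120836786). Rab11b, a GTPase of recycling endosomes, had folds of 3.37 and 3.77. Ell, a transcription elongation factor, had 3.23 and 6.2. Chd2, a chromatin remodeller, had 3.48 and 3.17 together with Chaserr, an lncRNA known to restrain Chd2. Kmt5c, a histone H4 methyltransferase, had 3.17 and 3.15 and Lig3, a DNA ligase, had 4.64 and 3.13. Ppp4r3a, a phosphatase subunit, and Papolg, a poly(A) polymerase, completed the 10 with lower folds of 3.07 and 2.95.

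Fold values of the replicates were related to differing degrees by chromosome. Over 447 regions the correlation of the folds was 0.199 by Spearman's rank coefficient and 0.115 by Pearson's coefficient. These regions share their libraries and are not replicates. Outside chromosomes 6, 9, 14 and 17 the rank coefficient was 0.0364 and Pearson's was -0.0224 over 355 regions. Over the 92 regions of those 4 chromosomes together they were 0.551 and 0.323. Within single chromosomes of the 4, the rank coefficient was 0.0765 on chromosome 6 (24 regions), 0.205 on 9 (32), 0.236 on 14 (10) and 0.321 on 17 (26). Median folds differed between these chromosomes, from 1.38 to 2.33 in replicate 1. Ccnt2, a cyclin of the elongation kinase, shows how far the replicates can part. Its region with 2900009J06Rik had the highest fold of replicate 2, 14.2, and a fold of 1.7 in replicate 1.

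**Figure D5:**
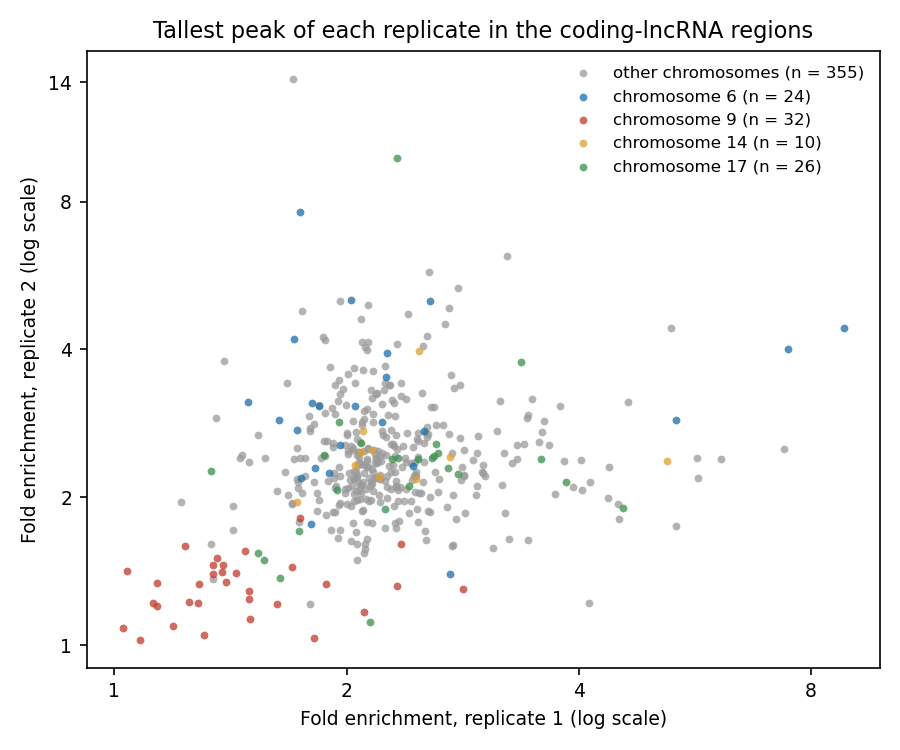
Highest fold enrichment of a peak in replicate 1 (x axis, log scale) and replicate 2 (y axis, log scale) for each of the 447 coding-lncRNA regions, coloured by chromosome. Most points form a cloud near 2 in both replicates, and the 32 regions of chromosome 9 lie lower, with medians of 1.38 and 1.325.

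Chromosome 9 stood apart in the significance of its peaks. Of its 32 regions, 28 had q of at most 0.05 in both replicates, with median −log10 q of 8.71 in replicate 1 and 10.3 in replicate 2 at median folds of 1.38 and 1.325. The same held for shared regions with a coding end only on that chromosome, of which 99 of 107 passed. Over all coding-lncRNA regions 75 of 447 (16.8%) passed that threshold in both replicates, against 15.5% of all shared regions. Chromosomes 6, 9, 14 and 17 were grouped because earlier results of these data set their folds and p-values apart. On these 4, 41 of 92 coding-lncRNA regions passed (44.6%), against 210 of 467 regions with a coding end only (45.0%). By chromosome, 9 of 24 passed on 6, 0 of 10 on 14 and 4 of 26 on 17, against 57 of 145, 21 of 90 and 33 of 125. Elsewhere it was 34 of 355 (9.58%), against 181 of 2073 (8.73%). Of the 10 regions with the smallest q in both replicates, 9 were on chromosome 9. They belonged to Tle3, a Groucho corepressor, St3gal4, a sialyltransferase, Chordc1, an Hsp90 cochaperone, Arpp21, an RNA-binding phosphoprotein, Tmem30a, a flippase subunit, Pias1, a SUMO ligase, Stt3a, of the oligosaccharyltransferase, Cul5, a cullin, and Copb2, of the COPI coat. The other was Asxl2, a Polycomb-associated protein, on chromosome 12. Tle3, with Gm34157, had the smallest, with −log10 q of 24.9 and 26.98 and folds of 1.74 and 1.82 (chr9:61370836-61372022). The part of the chromosome in these q-values was not tested.

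St3gal4 and Arpp21 are shown because their printed windows are of unlike base composition. The window of Arpp21 lies at a start inside the gene, 2566 bp from the annotated outermost start that the pair was measured from, and is therefore not the promoter at that outer start. Each is printed with the promoter of its head-to-head lncRNA, on that gene's own strand, with the same capitals.
St3gal4: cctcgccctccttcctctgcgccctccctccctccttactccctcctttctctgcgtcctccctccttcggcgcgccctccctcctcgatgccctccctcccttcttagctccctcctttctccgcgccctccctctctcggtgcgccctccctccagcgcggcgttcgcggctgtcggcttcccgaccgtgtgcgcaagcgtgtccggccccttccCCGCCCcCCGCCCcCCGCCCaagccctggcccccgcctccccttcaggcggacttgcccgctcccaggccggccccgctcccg
4930581F22Rik: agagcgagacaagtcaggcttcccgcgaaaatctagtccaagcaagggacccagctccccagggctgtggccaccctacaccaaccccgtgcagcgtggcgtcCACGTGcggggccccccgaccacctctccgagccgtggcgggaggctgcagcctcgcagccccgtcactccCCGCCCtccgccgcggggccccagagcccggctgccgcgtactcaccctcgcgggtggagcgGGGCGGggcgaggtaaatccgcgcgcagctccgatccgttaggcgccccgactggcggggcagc
Arpp21: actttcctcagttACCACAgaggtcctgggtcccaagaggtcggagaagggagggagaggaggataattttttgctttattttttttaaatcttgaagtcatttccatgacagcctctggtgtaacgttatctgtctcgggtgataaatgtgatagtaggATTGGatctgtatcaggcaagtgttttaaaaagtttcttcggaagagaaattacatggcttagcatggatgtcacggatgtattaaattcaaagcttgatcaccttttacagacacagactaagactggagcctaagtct
2900079G21Rik: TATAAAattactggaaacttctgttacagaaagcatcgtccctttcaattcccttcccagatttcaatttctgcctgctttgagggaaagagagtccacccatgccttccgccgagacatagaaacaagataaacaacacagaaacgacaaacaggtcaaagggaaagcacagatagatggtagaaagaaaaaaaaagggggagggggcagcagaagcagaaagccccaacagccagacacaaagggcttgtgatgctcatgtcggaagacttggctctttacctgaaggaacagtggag

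The St3gal4 promoter (chr9:35116815-35117114, minus strand) had a G+C share of 74.0% and 31 CpG dinucleotides, and that of 4930581F22Rik (chr9:35116478-35116777, plus strand) had 73.0% and 34. The St3gal4 capitals are 3 GC boxes in a row, read on the other strand. The Arpp21 window (chr9:112233673-112233972, minus strand) had 40.7% and 5 CpG, and that of 2900079G21Rik (chr9:112234027-112234326, plus strand) had 45.7% and 5. The St3gal4 region (572 bp) had folds of 1.36 and 1.5 and the Arpp21 region (2587 bp) had 1.48 and 1.55.

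Promoters of head-to-head pairs were rich in CpG on both sides. The ratio of observed to expected CpG had a median of 0.86 in the 281 coding promoters, against 0.848 in 2621 coding promoters at other shared regions and 0.586 in all 17274 coding promoters of the table. In the 281 lncRNA promoters it was 0.869, against 0.247 in all 9520 lncRNA promoters. A ratio of at least 0.6 was found in 84.0% of the lncRNA promoters of head-to-head regions, against 14.7% of all lncRNA promoters. The promoter table's start was the annotated outermost one in 152 of the 281 coding and 279 of the 281 lncRNA genes, and lay over 300 bp from it in 32 and 2. The windows of a close pair overlap, so the coding and lncRNA values share bases. Among all annotated head-to-head starts within 1 kb, the 262 joined pairs had median ratios of 0.87 at the coding and 0.88 at the lncRNA promoter, against 0.702 and 0.714 in the 729 pairs that no shared region joined.

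The GC box was more frequent and the TATA box less frequent than over all promoters. The GC box was found in 74.0% of the coding promoters of head-to-head regions, against 66.7% at other shared regions and 46.9% of all coding promoters. The Ets core stood at 22.1%, against 23.0% and 12.1%, and the CRE at 7.12%, against 5.34% and 2.36%. The TATA box was rarer, at 4.98%, against 7.21% and 13.4%, and the CCAAT box was near even at 42.0%, against 39.3% and 39.6%. In the lncRNA promoters of these pairs the GC box stood at 68.7%, against 16.8% of all lncRNA promoters, the Ets core at 17.1%, against 4.04%, and the TATA box at 4.98%, against 15.6%. The Runx letters stood at 9.96% in the coding promoters of the pairs, against 10.1% at other shared regions and 14.8% of all coding promoters. In the lncRNA promoters of the pairs they stood at 8.54%, against 20.2% of all lncRNA promoters. The remaining 4 motifs were the E-box, NRF1, YY1 and TCF, at 12.1%, 3.56%, 1.78% and 2.49% in the coding promoters of the pairs. At other shared regions they stood at 11.1%, 2.48%, 2.37% and 2.67%, and in all coding promoters at 8.01%, 1.35%, 0.978% and 3.32%. A match is a run of letters and not a site.

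The coding partners covered a wide range of cell functions. Classes were assigned by gene symbol, and 184 of 482 coding partners (38.2%) fell in one, against 37.5% of 3165 coding genes at other shared regions and 20.6% of all coding genes. Transcription factors were the largest class, with 36 genes (7.47%, against 5.15% at other shared regions and 3.59% of all coding genes, the order of shares kept for the classes that follow). Jun, an AP-1 subunit, had a region of 3255 bp with Junos, 95 bp away (folds 2.07 and 2.47). Stat3, a cytokine-activated factor, had 1643 bp with Gm46295 (folds 1.87 and 2.61), and Klf4 had 547 bp with Gm12506 (folds 2.33 and 2.51). Zfp36l2, which the symbol rule put here, is an RNA-binding protein. Stat3 and Klf4, and below Ezh2, Ctcf, Cdk9 and Fbxw7, were chosen after their values were seen.

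Chromatin and histone genes numbered 27 (5.6%, against 4.64% and 1.58%) by symbol and had the highest median width of the classes with over 1 region, 1835 bp over 25 regions. Kmt2e, a trithorax-family protein, had 3790 bp with 5031425E22Rik (folds 2.42 and 1.97). Ezh2, the methyltransferase of Polycomb complex PRC2, had 2092 bp with F830010H11Rik, 61 bp away (folds 1.49 and 3.12). Ctcf, the architectural factor, had 1835 bp with Gm5914 (folds 2.36 and 2.31). Gm5914 and 2500002B13Rik each stood in a pair of regions, one at either end, Gm5914 with Ctcf and Ripor1 and 2500002B13Rik with Hmgb2 and Sap30, a subunit of the Sin3 deacetylase complex. The symbol rule misses chromatin genes among the partners, Sap30, Sin3a, Mta2 and Ep400 among them, and it counts Srcap, a chromatin remodeller, as signalling, so the class counts are those of the rule.

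Genes that the symbol rule put under cell cycle, replication and repair numbered 18 (3.73%, against 3.19% and 1.83%). The rule counts Cdk9, Ccnt1 and Ccnt2 of transcription elongation and the kinesin gene Kif5a here. It misses repair genes among the partners, Exo1, Brip1 and Rev3l among them. Ccnd2, a D-type cyclin, had 3861 bp (folds 2.56 and 5.02), and Cdk6, its kinase partner in G1, had 3795 bp with Gm36470, whose start lies 2555 bp away (folds 2.25 and 2.44). Cdk9, the kinase of transcription elongation, had 2396 bp with Gm33457 (folds 2.95 and 2.11), and Cdc42ep3, in this class by its symbol, is a Cdc42 effector (2465 bp). RNA processing genes numbered 24 (4.98%, against 6.1% and 2.31%), led in width by Ptbp1, a splicing repressor (2877 bp), Ints6 of the Integrator complex (2587 bp) and Cnot1, the scaffold of the CCR4-NOT deadenylase (2321 bp). Genes that the symbol rule put under ubiquitin also numbered 24 (4.98%, against 4.52% and 2.69%), and the SUMO ligase Pias1 is counted there. Among them were Ube2h (3566 bp), an E2 enzyme, and the F-box proteins Fbxo11 (2807 bp) and Fbxw7 (1644 bp).

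Trafficking and cytoskeleton genes numbered 23 (4.77%, against 4.27% and 2.78%). Apart from Arpp21 and Cdc42ep3, the widest was Arhgef18, with 2325 bp (folds 3.55 and 2.6). Arpp19 and Arpp21 entered this class by symbol alone. Signalling genes numbered 20 (4.15%, against 3.19% and 3.09%), with Dusp2, a MAP kinase phosphatase (2973 bp, folds 2.52 and 1.71), and Tgfbr2, a TGF-beta receptor on chromosome 9 (2068 bp, folds 1.14 and 1.2). Mitochondrial genes numbered 9 (1.87%, against 2.34% and 1.2%), among them the carriers Slc25a28 (2280 bp) and Slc25a51 (1700 bp) and Ogdh, of the citrate cycle (1087 bp). Ribosome and translation genes numbered 5 (1.04%, against 3.85% and 1.4%): Rps13, Rps15, Btf3, Eif3m and Eef2k, a kinase of the elongation factor. Some genes are in more than one class, and no difference between these shares was tested.

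The class of T lineage, receptor and recombination genes is set by symbol too, and leaves out partners with roles in T cells such as Plcg1, Bcl6 and Orai1. This class held 1 of 482 coding partners, against 26 of 3165 at other shared regions and 78 of all 21631 coding genes (0.207%, against 0.821% and 0.361%). That partner was Ikzf1, which encodes Ikaros, a zinc finger regulator of lymphocyte development and also a member of the transcription factor class. Its region (chr11:11685786-11688365, 2580 bp) lay inside the gene, from 824 bp after the annotated start in replicate 1 and 869 bp in replicate 2, with folds of 2.39 and 2.36. Gm11999 starts on the other strand 673 bp inside Ikzf1, so both starts lay outside the peaks and within 1 kb of them. None of 12 marker genes of double-negative thymocytes lay in a coding-lncRNA region. Only 482 of all 21631 coding genes did, so none among 12 says little. In the peak lists as a whole 6 of these 12 had a gene-end peak in both replicates (Cd3d, Cd3e, Cd3g, Dntt, Tcf7 and Kit), and Il2ra, Bcl11b, Ptcra, Rag1, Rag2 and Cd44 did not. Markers of B cells (5), myeloid (4), erythroid (3), natural killer and gamma-delta (3) and stromal cells (3) were all without such a peak. Of all coding genes, 16.9% had an end within 1 kb of a shared region, so lists this short can lack one. The planned natural killer and gamma-delta list was longer than the 3 counted. Il2ra and other markers of the sorted cells also lacked a peak, so its lack does not show that a cell type was absent.

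Most lncRNA partners have only an identifier. Of the closest partners, 270 had a Gm number, 131 a Rik identifier, 8 a LOC number and 38 another symbol, of which 20 end in os, for opposite strand. Some of these other symbols, such as BC031361 and AW011738, are identifiers too. The 38 regions had a median width of 1521 bp, and 24 of the 31 with strands were head to head. Several are well-known transcripts, named here for their symbols and not for their values. Gas5, a host gene of small nucleolar RNAs, starts 263 bp inside Zbtb37 and shared a region of 2144 bp with it (chr1:161034404-161036547), with folds of 2.002 in replicate 1 and 2.7 in replicate 2. Zfas1, another such host gene, shared 2163 bp with Znfx1 (chr2:167062316-167064478, folds 2.22 and 2.73), of which replicate 2 covered 400 bp. Tug1 starts 375 bp from Morc2a, and its region of 1334 bp had folds of 1.79 and 1.22 (chr11:3648395-3649728). Gt(ROSA)26Sor, the locus used widely for transgene insertion, has an end 18 bp from Setd5, in a pair without both strands, with 1514 bp and folds of 2.02 and 5.05 (chr6:113076317-113077830). Particl shared 1767 bp with Mat2a, the gene of a methionine adenosyltransferase, with folds of 5.35 and 2.87 (chr6:72438660-72440426). Atrip-trex1 is a read-through locus of Atrip and Trex1 that the annotation lists as an lncRNA, and its 2 regions on chromosome 9 therefore join a coding gene to a transcript that runs through it.

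A few regions held more than 1 pair. Of the 447, 407 had 1 coding and 1 lncRNA gene, 30 had 2 coding genes and 2 had more, and 8 had 2 lncRNA genes. The most crowded was a region of 697 bp on chromosome 17 (chr17:47687730-47688426, folds 2.47 and 2.39), where Tomm6os reached Frs3, Tomm6, Prickle4, Usp49 and the predicted gene Gm20517. Most regions, 439 of 447, were made of 1 peak of each replicate, and fold was higher in replicate 1 in 194 and in replicate 2 in 253.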

How the data were processed

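The submitters' processing notes name Bowtie2, the mm10 build and MACS 1.4.2. The deposited lists have the broad peak layout of MACS2 instead, so the caller's version is uncertain. Peak names show calls per sample after removal of duplicates. Neither the calling threshold nor whether the input served as background is given in the sources used here. Deposited with each peak by the authors are a fold (a ratio), a −log10 p-value, a −log10 q-value and a score, which was not used. Depth is unknown because no read counts were analysed, and no interval from counting is given.

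Replicate 1 had 12228 peaks and replicate 2 had 9429 on chromosomes 1 to 19 and X. Peaks that overlapped by at least 1 bp were merged. The fold or q of a region is the highest fold or the smallest q among its peaks in each replicate. Coordinates count from 1. Gene ends and biotypes came from RefSeq (GRCm38.p6, the build mm10). Strand came from a RefSeq promoter table, which held 17274 of 21631 coding and 9520 of 12697 lncRNA genes. An annotated start is the outermost 5′ end, and exons and introns could not be separated. The distance of a pair is the smallest between ends in reach of the region.

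The regions, gene classes and motifs were chosen with earlier results of these data known. Genes named are the 10 widest regions, the 10 with the highest lower fold, the 10 with the largest lower −log10 q, the 5 closest and 5 farthest pairs, those at the 1 kb limit, the most crowded, and up to 3 per class by width. No test was made: there is 1 condition, and regions are not replicates. Merging, pairing and orientation were checked on simulated data. Alternatives changed the q threshold, the overlap, the window, the gene ends, the lncRNA genes, the chromosomes and the replicates. Computations used Python 3.11.15, pandas 2.3.3, numpy 2.4.6, scipy 1.17.1 and matplotlib 3.10.9.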

Additional observations from a re-analysis of the deposited data

Results flagged for a closer look

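Peaks on chromosome Y and on unplaced sequences were outside the comparison, and 20 regions there held a peak of each replicate, 8 on Y and 12 on unplaced sequences. Without a control for these sequences they are given as a count only.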

How the results depend on the processing

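The number of coding-lncRNA regions, 447, fell to 75 with q of at most 0.05 and to 23 with q of at most 1e-05. It fell to 274 when the region itself had to hold both ends (a window of 0 bp) and to 38 without lncRNA genes of a Gm, Rik or LOC symbol. Fewer peaks, positions or genes enter by construction in each of these. It was 303 to 549 under the other alternatives on both replicates, and 551 to 617 from one replicate alone. Median width, 1297 bp, was 579 bp for the bases covered by both replicates and 1452 bp with a window of 0 bp. The bases that a single replicate covered within the 447 regions had medians of 881 and 1054 bp. Median pair distance, 230 bp, was 265 bp over all pairs and 149.5, 210.5 and 316 bp with windows of 0 bp, 500 bp and 2.5 kb. It was 204 bp between gene starts and 205 bp without lncRNA genes of a Gm, Rik or LOC symbol. Median fold, 2.29 over the mean of both replicates, was 2.16 and 2.32 by the folds of a single replicate in the same 447 regions. It was 2.6 with q of at most 0.05. The head-to-head count, 281, was 188 to 316, and 272 by the nearest ends, an alternative chosen after seeing the data. The T lineage class had 0 genes with a window of 500 bp and 3 with 2.5 kb. The other class counts stayed within 1.5 times. The cause of these shifts was not tested unless named. No paired analysis was possible because there is 1 group of 2 replicates. Peaks were called per sample at an unknown depth, so a pair without a shared region is not shown to lack acetylation.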
